A study of Mus musculus with 6 samples.

Results

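Genes of 10 secreted factors that set the numbers and behaviour of myeloid and stromal cells were followed in 2 populations of mouse mammary carcinoma cells. They comprised the colony stimulating factor genes Csf1, Csf2 and Csf3, the gp130 cytokine genes Il6, Lif and Il11, and the interleukin-1 family genes Il1a, Il1b, Il1rn and Il33. The genes were taken from the table by symbol, as families chosen with earlier results of these data known, and make up 10 of the 24129 gene names in the expression table. All 10 had at least 1 read. Of these, 6 averaged at least 10 normalized counts over the samples and entered the test across all genes, namely Csf1, Csf3, Lif, Il11, Il1a and Il33. Csf2, Il6, Il1b and Il1rn fell under that filter and are given by their reads.

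Colony stimulating factors act on haematopoietic cells through dedicated receptors. CSF1 (M-CSF) sustains macrophages through CSF1R, CSF2 (GM-CSF) drives granulocytes and macrophages through CSF2RA and the shared beta chain CSF2RB, and CSF3 (G-CSF) drives neutrophil production through CSF3R. IL-6, LIF and IL-11 each bind a receptor chain of their own and then gp130 (Il6st), which activates JAK kinases and STAT3. IL-1α and IL-1β activate NF-kB and MAP kinases through IL1R1 with IL1RAP, the IL-1 receptor antagonist (Il1rn) occupies IL1R1 without signalling, and IL-33 signals through ST2 (Il1rl1) with IL1RAP. The 4T1 model is known for tumour-derived colony stimulating factors and for the expansion of myeloid cells in tumour-bearing mice.

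All 6 samples were 4T1GFP cells, a GFP-tagged line of a BALB/c mammary carcinoma, recovered from a mammary tumour in which that line had grown and then kept in the same serum-containing DMEM/F-12 medium. T1 cells (labelled 4T1A, 3 replicates) had low GFP, adhered, were epithelial in shape and were described as aggressive in mice. T2 cells (labelled 4T1NA, 3 replicates) had high GFP, were round and loosely adherent, were passaged without trypsin and were described as non-aggressive. By the study's account, T1 and T2 cells came from the culture of a GFP-negative, CD140a-positive fibroblast fraction of 1 tumour. A few GFP-positive tumour cells in it outgrew the fibroblasts and were then separated by GFP level. Each of T1 and T2 thus stands for 1 derived population. The replicates are called independent, but nothing says that they came from separate sorts or animals, so the p-values below measure the spread between these samples, which may be technical. Parental cells were not analysed here.

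The libraries held 18133227 to 20839686 reads on genes, and 1 read was worth 0.928 to 1.06 normalized counts. Of 11514 genes tested with limma, 480 (4.17%) were called higher in T1 cells and 484 (4.2%) lower, where a call needs an adjusted p below 0.01 and a log2 fold change beyond 2 in either direction. Without the fold threshold, 5701 genes (49.5%) had an adjusted p below 0.01, 2888 (25.1%) higher and 2813 (24.4%) lower in T1 cells, and in 7845 (68.1%) the T1 and T2 values did not overlap. Of 8 mammary carcinoma markers 6 were tested and 4 were called, all higher in T1 cells: Epcam, Cdh1, Krt7 and Krt19, with log2 fold changes of 6.46, 4.98, 7.33 and 10.01. Krt19 had 9 reads in all T2 samples. The keratin genes Krt8 and Krt18 were abundant in both populations, with log2 fold changes of 0.20 (adjusted p = 0.0534) and 0.10 (adjusted p = 0.394). Leukocyte markers, another source of these cytokines, summed to 388 to 470 normalized counts in T1 and 169 to 208 in T2 cells over 18 genes. Of these, 9 had no read, including Adgre1, Tyrobp, Cd3e and S100a9. Ptprc, the pan-leukocyte marker CD45, had 0 reads in T1 and 14 in T2 cells, and Cd14 carried most of the T1 sum. Fibroblast markers summed to 712 to 879 in T1 and 2145 to 2669 in T2 cells over 12 genes, with no read for Col3a1, Lum, Pdgfrb or Thy1. Of the 4 tested, Pdgfra was called lower in T1 cells (log2 fold change -2.45) and Col6a1 was lower inside the fold threshold (-1.51), whereas Postn (442 reads in T1 and 0 in T2 cells) and Col1a1 (69 and 1 reads) were called higher. Endothelial markers summed to at most 16.9. The part of other cell types in the results was not tested. These are bulk samples, in which fewer cells expressing a gene and less RNA per cell cannot be told apart.

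The promoters of the members for which the RNA differed, and that of the almost silent Il6 for comparison, are shown as the 250 bases before a RefSeq start site (GRCm38.p6, 5′ to 3′ on the gene's strand). Capitals mark matches to motifs of factors known to control cytokine genes, searched on both strands: a TATA box (TATAAA), NF-kB (GGGANTTTC), AP-1 (TGANTCA), C/EBP (TTGCNNAA) and a STAT site (TTCNNNGAA). Where motifs overlapped, each was counted. Il11 and Il33 each have another window that is not printed, which held 0 matches in Il11 and 1, a TATA box, in Il33.
Csf1, chr3:107760470-107760719, minus strand: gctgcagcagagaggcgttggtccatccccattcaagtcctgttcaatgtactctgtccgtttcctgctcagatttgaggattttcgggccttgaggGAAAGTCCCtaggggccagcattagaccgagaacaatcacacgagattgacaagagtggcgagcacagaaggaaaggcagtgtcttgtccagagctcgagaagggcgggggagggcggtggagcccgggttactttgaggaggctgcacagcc
Lif, chr11:4257318-4257567, plus strand: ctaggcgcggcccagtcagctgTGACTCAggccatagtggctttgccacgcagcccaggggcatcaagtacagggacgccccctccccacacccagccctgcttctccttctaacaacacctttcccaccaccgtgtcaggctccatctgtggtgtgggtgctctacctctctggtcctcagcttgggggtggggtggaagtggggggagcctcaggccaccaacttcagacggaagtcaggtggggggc
Il11, chr7:4778142-4778391, minus strand: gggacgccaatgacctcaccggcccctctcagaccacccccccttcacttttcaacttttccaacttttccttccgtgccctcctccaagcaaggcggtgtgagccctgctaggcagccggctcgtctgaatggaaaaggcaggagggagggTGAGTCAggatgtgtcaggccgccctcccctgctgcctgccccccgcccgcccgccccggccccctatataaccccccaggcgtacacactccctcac
Il1a, chr2:129309973-129310222, minus strand: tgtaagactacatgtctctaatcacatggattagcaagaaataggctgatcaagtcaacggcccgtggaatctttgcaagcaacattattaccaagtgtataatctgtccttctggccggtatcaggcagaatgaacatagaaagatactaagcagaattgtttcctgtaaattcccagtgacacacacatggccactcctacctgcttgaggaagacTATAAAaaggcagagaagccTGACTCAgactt
Il33, chr19:29945540-29945789, plus strand: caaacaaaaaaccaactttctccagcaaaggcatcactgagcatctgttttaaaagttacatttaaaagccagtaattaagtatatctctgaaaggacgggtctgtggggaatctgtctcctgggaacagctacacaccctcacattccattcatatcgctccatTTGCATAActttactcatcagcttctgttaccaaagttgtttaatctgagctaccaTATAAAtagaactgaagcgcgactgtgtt
Il6, chr5:30012864-30013113, plus strand: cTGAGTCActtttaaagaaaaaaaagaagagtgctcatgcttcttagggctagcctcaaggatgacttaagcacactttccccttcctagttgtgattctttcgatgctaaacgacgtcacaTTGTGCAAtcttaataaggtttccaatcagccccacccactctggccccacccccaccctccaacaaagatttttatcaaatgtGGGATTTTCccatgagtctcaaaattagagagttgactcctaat

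RefSeq gave 13 such windows for 9 of the 10 genes, and none for Csf3. The AP-1 motif was present in 5 of the 13 windows, 1 each of Lif, Il11, Il6, Il1a and Il1rn, against 6.75% of 32851 windows of all genes. In the Il1a window it lay 12 bases before the start, next to a TATA box at 32 bases. NF-kB matches were found in 2 of the 13 windows, against 0.941% of all windows. They lay in Csf1, 153 bases before the start and on the opposite strand, and in Il6 at 44 bases. C/EBP matches occurred in 3 windows, 1 each of Csf2, Il33 and Il6 (9.56% of all windows). The TATA box occurred in 4, of Il1a, Il1b and both of Il33 (12.4%), and the STAT motif in none of the 13 (7.02%). The Il6 window therefore held matches to 3 of the motifs in a gene with 2 reads in either population. These matches describe letters in the window and not binding, and gene-level counts do not tell which start of Il11 or Il33 was used.

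Messenger RNAs of several of these cytokines are known to be short-lived through AU-rich elements in the 3′UTR, which ZFP36 family proteins bind. The nonamer TTATTTATT, the core of such elements, occurred in the 3′UTR of 3 of the 10 genes, against 7.73% of 20532 annotated genes (GENCODE M21, GRCm38). A stretch of each is shown 5′ to 3′ on the gene's strand, with the nonamers in capitals.
Csf2, chr11:54247327-54247356, minus strand: tttaaatatTTATTTATTTATTTATTTATT
Lif, chr11:4272038-4272067, plus strand: caaaggggcctTTATTTATTatttaaaact
Il11, chr7:4773502-4773531, minus strand: aaaaccagatcTTATTTATTTATTTATTtt

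Csf2 held 4 overlapping nonamers, Il11 held 5 and Lif 2. Counted as the shorter ATTTA pentamer, Csf2 had 28.4 per kb of 3′UTR, Csf3 8.97, Il1b 8.71, Il11 8.38 and Il6 6.0, while the median over all genes was 1.27 and Il1rn had 0. Lif and Il11, which share the nonamer, differed between the populations in opposite directions.

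Among the colony stimulating factors, Csf1 was the most abundant and was lower in T1 than in T2 cells. Csf1 (chr3:107741048-107760469, minus strand) had 2349, 2758 and 2324 normalized counts in T1 replicates 1 to 3, and 5587, 6404 and 4671 in T2 replicates 1 to 3. Every T2 sample lay above every T1 sample. The means were 2477 ± 244 and 5554 ± 867 (SD, n = 3 each), a 2.24-fold higher level in T2 cells. The log2 fold change was -1.16 (SE 0.12, 95% interval -1.42 to -0.90, adjusted p = 1.33e-05, limma), so Csf1 passed the p threshold but lay inside the fold threshold and was not called.

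Csf3, which drives neutrophil output, did not differ beyond the spread. Csf3 (chr11:98701263-98703629, plus strand) had 486, 516 and 516 normalized counts in T1 samples and 550, 514 and 689 in T2 samples. The ranges overlapped, and T2 replicate 3 stood highest. The means were 506 ± 18 and 585 ± 93 (SD, n = 3 each), with a log2 fold change of -0.20 (95% interval -0.47 to 0.08, adjusted p = 0.193). That interval leaves room for a modestly higher level in T2 cells and does not show equal levels.

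Csf2 (chr11:54247271-54249667, minus strand) was near the limit of detection. It had 10, 18 and 16 reads in T1 samples and 3, 7 and 1 in T2 samples, or 14.31 ± 3.28 and 3.68 ± 3.19 normalized counts (SD, n = 3 each). The samples did not overlap, and the ratio of the means was 3.89. Its mean over the 6 samples, 8.995, placed it just under the filter of 10. Fitted without the filter, its log2 fold change was 1.93 (SE 0.52, adjusted p = 0.0103, limma over 15710 genes with a read) and 1.98 (adjusted p = 0.0137, edgeR), both short of the thresholds. Of the 3 factors, therefore, the 1 for macrophages was higher in T2 cells, the 1 for neutrophils was not distinguished, and GM-CSF had few reads, most of them in T1 cells.

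**Figure D1:**
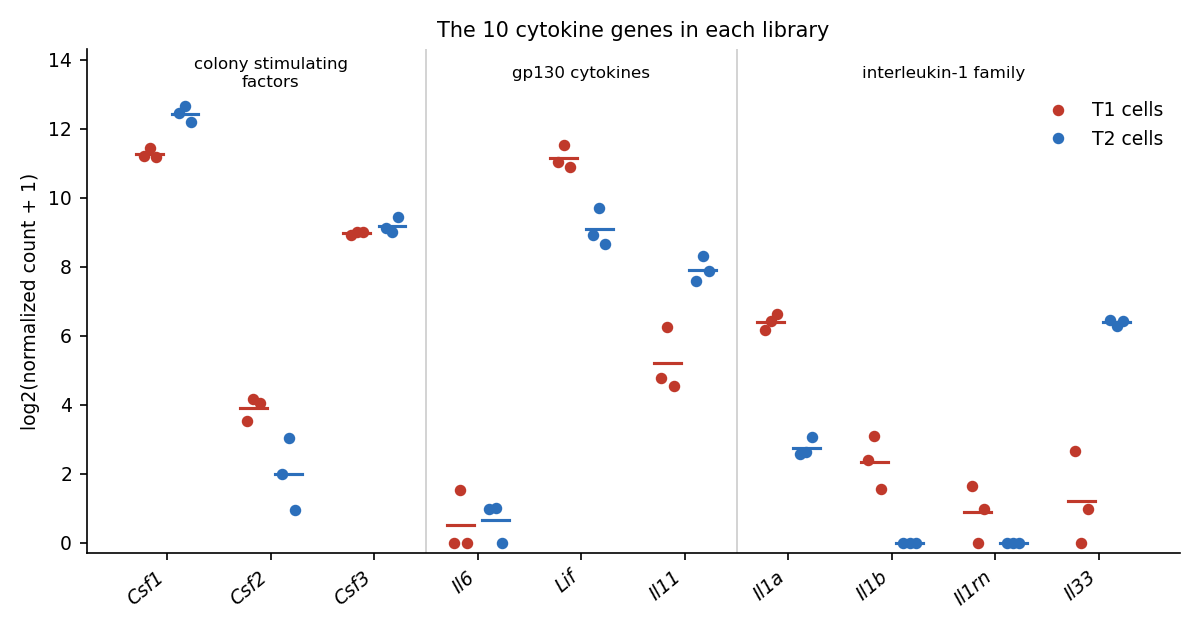
Expression of the 10 cytokine genes in each library, as log2(normalized count + 1) on the vertical axis, for 3 T1 (red) and 3 T2 (blue) samples. Points are libraries and bars are group means. Lif and Il1a stand higher in T1 cells, Csf1, Il11 and Il33 stand higher in T2 cells, Il6 and Il1rn lie below 2 in every library, and Il1b lies between 1 and 4 in T1 cells and at 0 in T2 cells.

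The gp130 cytokines split. Lif, known for keeping mouse embryonic stem cells undifferentiated, was called higher in T1 cells, and Il11, a stromal cytokine linked to fibrosis, was called lower. Lif (chr11:4257557-4272514, plus strand) had 2093, 2920 and 1883 normalized counts in T1 samples and 483, 834 and 399 in T2 samples. All T1 samples lay above all T2 samples. The means were 2299 ± 549 and 572 ± 231 (SD, n = 3 each), a 4.02-fold difference, and the log2 fold change was 2.05 (SE 0.25, 95% interval 1.51 to 2.60, adjusted p = 4.48e-05). This lies just beyond the fold threshold, and the call was lost without T1 replicate 2 (1.87), T2 replicate 1 (1.97) or T2 replicate 3 (1.83), although the adjusted p stayed below 0.01 in each.

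Il11 (chr7:4772373-4782859, minus strand) had 26.5, 75.3 and 22.5 normalized counts in T1 samples and 190, 314 and 233 in T2 samples. The groups did not overlap, and T1 replicate 2 stood well above the other T1 samples, at 3.36 times the lowest. The means were 41.4 ± 29.4 and 246 ± 63 (SD, n = 3 each), 5.93-fold higher in T2 cells. The log2 fold change was -2.72 (SE 0.40, 95% interval -3.60 to -1.84, adjusted p = 0.000173) and ranged from -3.25 without T1 replicate 2 to -2.40 without T1 replicate 3. Il6 (chr5:30013114-30019981, plus strand), the founding member of the family and a main inducer of the acute phase response, had 0, 2 and 0 reads in T1 and 1, 1 and 0 reads in T2 samples. At 2 reads in each population no difference was detectable at this depth.

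Lif and Il11 differed in opposite directions between populations, yet within each population both were highest in replicate 2. The same was true of Clcf1, another gp130 cytokine, and of Fos, Zfp36, Dusp1 and Socs3, genes of the rapid response to stimulation, all picked with their values in view. Fos had 479, 4333 and 1106 normalized counts in T1 samples and 4518, 8535 and 6568 in T2 samples. Socs3, the feedback inhibitor of gp130, had 344, 1587 and 836 in T1 samples and 1812, 3028 and 2164 in T2 samples. Relative to the mean of its population on the log2 scale, replicate 2 stood 0.37 (T1) and 0.62 (T2) higher for Lif, 1.06 and 0.39 higher for Il11, and 0.78 and 1.10 higher for Zfp36. For Csf1 replicate 2 stood 0.16 and 0.22 higher, whereas for Il1a the highest library was replicate 3 in each population. For Csf3 replicate 3 was highest in T2 cells, and in T1 cells replicates 2 and 3 were level (0.029 and 0.030). What sets replicate 2 apart is not stated in the labels, and its part in the levels was not tested. Without replicate 2 of both populations the log2 fold changes were 2.18 for Lif and -3.06 for Il11.

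**Figure D2:**
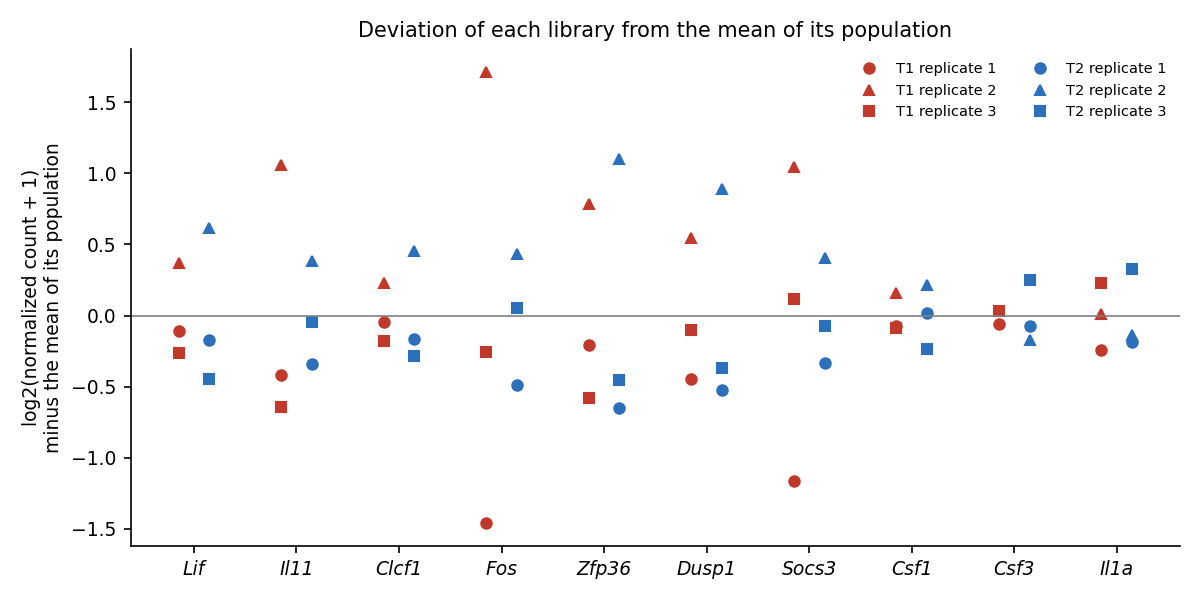
Deviation of each library from the mean of its own population, in log2(normalized count + 1), for gp130 cytokines, rapid response genes and 3 other cytokine genes. Circles, triangles and squares are replicates 1, 2 and 3 of T1 (red) and T2 (blue) cells. The triangles stand highest for Lif, Il11, Clcf1, Fos, Zfp36, Dusp1 and Socs3 in both populations, but not for Csf3 or Il1a.

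In the interleukin-1 family the alarmins Il1a and Il33, both of which act when released from damaged cells, were called in opposite directions. Il1a (chr2:129299610-129309972, minus strand) had 70.9, 84.6 and 98.6 normalized counts in T1 samples and 4.90, 5.12 and 7.42 in T2 samples. The groups were far apart. The means were 84.7 ± 13.8 and 5.81 ± 1.40 (SD, n = 3 each), a 14.6-fold difference, and the log2 fold change was 3.66 (SE 0.29, 95% interval 3.01 to 4.31, adjusted p = 2.46e-06). In T2 cells this rested on 5, 5 and 8 reads.

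Il33 (chr19:29925114-29960718, plus strand) was close to absent from T1 cells, with 5, 0 and 1 reads in the 3 samples, and had 88, 75 and 91 reads in T2 samples. In normalized counts the T1 samples had 5.29, 0 and 0.976 and the T2 samples 86.2, 76.8 and 84.4. Only T1 replicate 1 held more than 1 read among the T1 samples. The means were 2.09 ± 2.82 and 82.5 ± 5.0 (SD, n = 3 each), 39.5-fold higher in T2 cells, and the log2 fold change was -5.17 (SE 0.58, 95% interval -6.46 to -3.88, adjusted p = 2.73e-05). With so few T1 reads its size depended on single samples and on the pseudocount: it was -5.89 without T1 replicate 1, -4.56 without T1 replicate 2 and -3.69 with a pseudocount of 5, and the call stood in each.

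Il1b (chr2:129364570-129371139, minus strand), which encodes the secreted IL-1 that inflammasomes process, had 4, 8 and 2 reads in T1 samples and no read in any T2 sample. With T2 samples set to a floor of 3 reads per library, T1 cells were at least 1.55-fold higher. Without the filter on low counts Il1b passed both thresholds (adjusted p = 0.00156 with limma), which made 3 members called higher in place of 2. Il1rn (chr2:24336853-24351494, plus strand), the receptor antagonist, had 2, 0 and 1 reads in T1 samples and none in T2 samples, too few for a fold. Without the filter its adjusted p was 0.164 with limma. Noncoding genes lie on the opposite strand of Il1a and Il1b, each with at most 2 reads in a library, and that opposite Csf2 was not analysed here. The kit does not mark strand, so reads of such partners cannot be told apart.

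Of the 6 members tested, 2 were called higher in T1 cells (Lif and Il1a), against 4.17% of all genes, and 2 lower (Il11 and Il33), against 4.2%. With Csf1, 5 of the 6 had an adjusted p below 0.01 (49.5% of all genes), and the same 5 did not overlap between populations (68.1% of all genes). The median log2 fold change of the 6 was -0.68, against -0.005 over all genes tested. The gp130 and interleukin-1 groups each held 1 call in each direction. Il1a and Il33 passed the filter only through the population where they were high, with means of 5.81 in T2 and 2.09 in T1 cells. With a mean of at least 50 required, they were not tested, and 1 member was called higher and 1 lower. The call counts are therefore given as description, as are those at the p threshold and of separated groups, which so many genes pass.

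**Figure D3:**
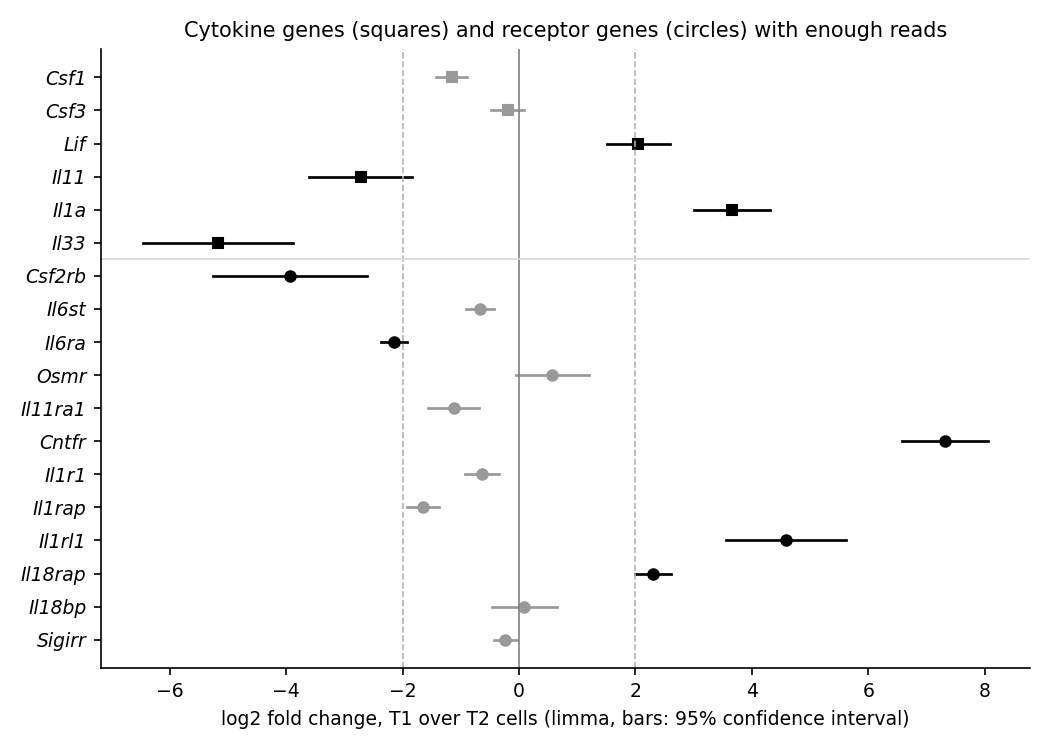
The log2 fold change of T1 over T2 cells with its 95% confidence interval from limma, for the 6 cytokine genes tested (squares) and 12 receptor and decoy genes tested (circles). Black marks called genes, grey the others, and dashed lines the fold threshold. Lif sits at 2.05, just beyond the line, and the fitted value of Cntfr rests on 0 reads in T2 cells and is no measure of its size.

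The order of the levels was taken per kb of exon, as normalized counts divided by exonic length. That length joins all annotated exons of a gene. The order between genes therefore also depends on which transcripts were used, which gene-level counts do not tell. In T1 cells Lif came first at 528 ± 126, followed by Csf1 at 469 ± 46 and Csf3 at 358 ± 13 (SD, n = 3 each). Lif and Csf1 overlapped. Next were Il1a at 42.9 ± 7.0, Il11 at 19.9 ± 14.2 and Csf2 at 17.9 ± 4.1, each overlapping its neighbour, and the other 4 were at 2.38 or below. In T2 cells Csf1 led at 1052 ± 164, ahead of Csf3 at 414 ± 66 without overlap. Lif at 131 ± 53 and Il11 at 118 ± 30 overlapped each other, Il33 followed at 28.6 ± 1.7, and Csf2 at 4.60 ± 3.98 overlapped Il1a at 2.95 ± 0.71. Among 15132 genes ranked by this level, Lif stood at rank 2026 in T1 and 5834 in T2 cells, and Csf1 at 2306 and 846. By this measure Lif and Csf1 overlapped at the top in T1 cells, and Csf1 stood well above the rest in T2 cells.

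The receptors through which these factors act were mostly scarce for the colony stimulating factors and present for the gp130 and IL-1 families. Csf1r, the macrophage CSF1 receptor, had 2, 10 and 8 reads in T1 and 1, 1 and 0 in T2 samples, a ratio of 9.60 (95% counting interval 2.33 to 84.7) that was not tested. Csf2ra and Csf3r had no read in any sample, which allows up to 3 reads per library. Csf2rb, the shared beta chain, had 0, 1 and 0 reads in T1 and 24, 8 and 32 in T2 samples and was called lower in T1 cells (log2 fold change -3.94, adjusted p = 0.000218). Its near-identical copy Csf2rb2 had 0 reads in T1 and 39 in T2 cells, and reads may be split between the 2 genes.

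Of the gp130 receptor genes, Il6ra, the IL-6 binding chain, was called lower in T1 cells, at 266 ± 18 against 1183 ± 45 normalized counts (SD, n = 3 each; log2 fold change -2.15, adjusted p = 6.3e-08). The common chain Il6st was abundant in both, at 1725 ± 219 and 2736 ± 263 (log2 fold change -0.67, adjusted p = 0.000375), and Il11ra1 was at 50.2 ± 7.3 and 110 ± 12 (log2 fold change -1.12, adjusted p = 0.000645). Neither reached the fold threshold, and the copy Il11ra2 was not analysed here. Lifr, the chain that LIF needs, had 1, 0 and 1 reads in T1 and 4, 12 and 11 in T2 samples, the reverse of its ligand, and was not tested. Cntfr, which binds CNTF and the CLCF1 complex, had 133, 202 and 151 reads in T1 samples and none in T2 samples, at least 54.1-fold higher, and was called. Osmr did not differ beyond the spread (log2 fold change 0.58, adjusted p = 0.0981). Il27ra had 39 reads in T1 and 2 in T2 cells and was not tested.

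The IL-33 receptor ST2 (Il1rl1) was the reverse of its ligand. It had 31, 29 and 28 reads in T1 samples and 0, 0 and 1 in T2 samples, a ratio of 93.9 (95% counting interval 16.4 to 3749), and was called higher in T1 cells (log2 fold change 4.59, adjusted p = 1.31e-05). Il1r1 and its partner Il1rap were lower in T1 cells inside the fold threshold, with log2 fold changes of -0.63 (adjusted p = 0.00186) and -1.64 (adjusted p = 1.68e-06). Il18rap, a chain of the IL-18 receptor, was called higher in T1 cells, at 683 ± 90 against 137 ± 13 (SD, n = 3 each; log2 fold change 2.30, adjusted p = 4.17e-07), while its partner Il18r1 had 1 read in all. The decoy Il1r2 had 1 read and Il1rl2 1 read. The inhibitory genes Sigirr (log2 fold change -0.23, adjusted p = 0.0462) and Il18bp (0.09, adjusted p = 0.771) did not pass the p threshold. For Il33 with Il1rl1 and for Lif with Lifr, then, the population with more ligand RNA had fewer receptor reads. Il1rap, the partner chain of ST2, was instead higher in T2 cells, as Il33 was. An opposite order of ligand and receptor also held for Csf1 and Csf1r and for Csf2 and Csf2rb, though Lifr, Csf1r and Csf2 fell under the filter. Il1a was higher in T1 cells, whereas Il1r1 was lower inside the fold threshold. For Il11 and Il11ra1 the ligand and receptor were both higher in T2 cells. Whether such pairs act between the populations was not tested.

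**Figure D4:**
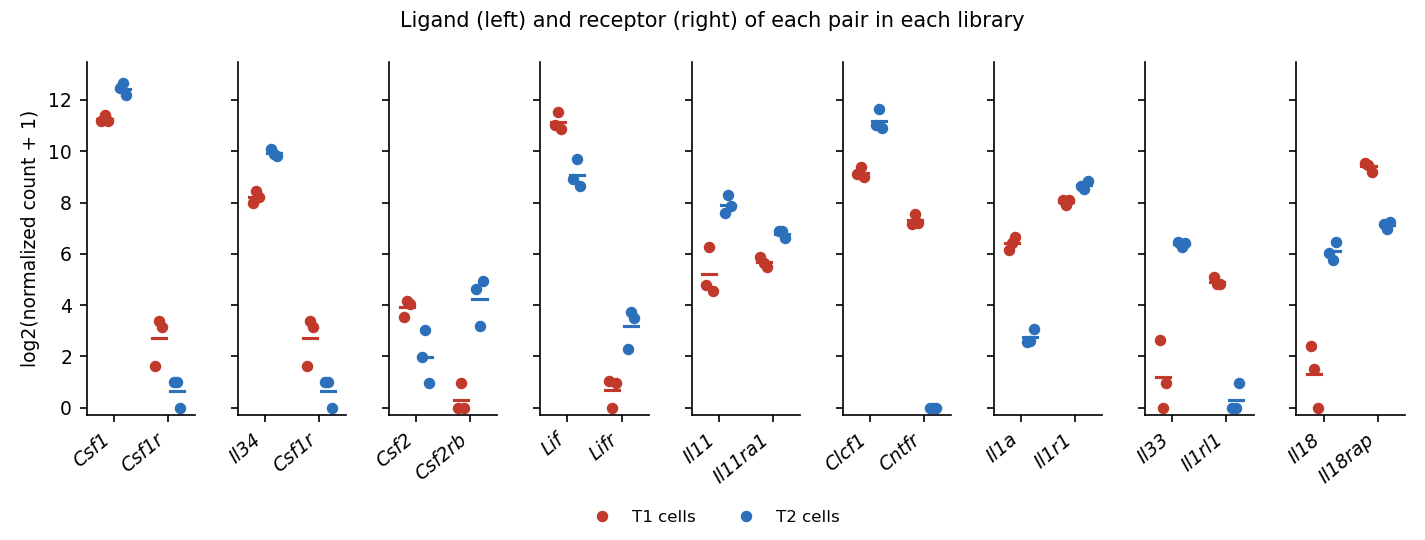
Ligand genes (left of each panel) and a receptor gene of each (right), as log2(normalized count + 1), in 3 T1 (red) and 3 T2 (blue) libraries, with bars at group means. By group means, Il11 and Il11ra1 are both higher in T2 cells, and the ligand and the receptor gene drawn stand opposite each other in every other pair. Only 1 receptor chain is drawn per ligand, and the pattern depends on that choice. The shared chains Il1rap and Il6st, not drawn, are higher in T2 cells, as are Il33 and Clcf1, and unlike Il1a and Lif. Csf1r, Csf2 and Lifr have few reads.

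Other ligands of the same receptors or families numbered 33, of which 32 were in the table, 15 had no read and 12 were tested. Of the 12, 2 were called higher in T1 cells (4.17% of all genes) and 5 lower (4.2% of all genes). Their median log2 fold change was -1.21, against -0.005 over all genes tested. Il18 and Il7 passed the filter on low counts only through T2 cells, with means of 2.03 and 2.56 in T1 cells. These counts and this median are therefore given as description. Il24, a cytokine of the IL-10 family, had 771, 838 and 629 normalized counts in T1 and 56.8, 62.5 and 57.5 in T2 samples (log2 fold change 3.63, adjusted p = 2.8e-08). Tslp, an epithelial cytokine of type 2 immunity, had 338, 208 and 362 in T1 and 3042, 2951 and 3019 in T2 samples (log2 fold change -3.35, adjusted p = 1.41e-07). These were the most strongly expressed of the 4 with the largest differences. Il18, another inflammasome substrate, was at 2.03 ± 2.12 and 68.7 ± 17.8 (SD, n = 3 each; log2 fold change -4.79, adjusted p = 3.63e-05), and Il7, a lymphocyte survival factor, at 8 reads in T1 and 138 in T2 cells (log2 fold change -4.03, adjusted p = 0.000176). Il34, the second ligand of CSF1R, and Clcf1 are named after their values were seen. Il34 had 254, 347 and 293 in T1 and 1090, 947 and 908 in T2 samples (log2 fold change -1.73, adjusted p = 2.11e-06), the same direction as Csf1. Clcf1 had 554, 672 and 505 in T1 and 2075, 3183 and 1907 in T2 samples (log2 fold change -2.02, adjusted p = 5.45e-06), the same direction as Il11 and opposite to Lif.

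Genes that process and release IL-1 family cytokines numbered 11, of which 5 were tested. All 5 had an adjusted p below 0.01, and were lower in T1 cells (Casp1, Gsdmd, Capn1, Capn2 and Ninj1), against 24.4% of all genes. Of the 5, 1 was called lower, against 4.2% of all genes. That gene was Casp1, the protease that matures IL-1β and IL-18, with 7.41, 0 and 9.76 normalized counts in T1 and 219, 204 and 315 in T2 samples (log2 fold change -5.76, adjusted p = 6.74e-05), a ratio of the means of 43.0. Il18 and Casp1 were thus both higher in T2 cells, and Il1b had reads in T1 cells alone, where Casp1 had 17 reads in all. Of the genes not tested, Casp4, Pycard, Nlrp3, Nlrc4 and Aim2 fell under the filter and Nlrp1b had no read. Pycard had 7 reads in T1 and 3 in T2 cells, and Nlrp3 had 3 and 23. Whether these cytokines are processed in either population was not tested. Capn1 and Capn2, subunits of calpains that cleave pro-IL-1α, had log2 fold changes of -0.48 and -1.01.

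The 14 genes of IL-1 receptor signalling held no called gene among 13 tested, with 3 higher and 1 lower in T1 cells at the p threshold alone (25.1% and 24.4% of all genes). The most abundant were the kinase Irak1, lower in T1 cells inside the fold threshold (log2 fold change -0.56, adjusted p = 0.00011), and the adaptor Tab2 (0.14, adjusted p = 0.108). Of 10 JAK and STAT genes tested 1 was called lower, against 4.2% of all genes. This was Jak2, a kinase that acts behind gp130, CSF2RB and other receptors. Jak2 had 644, 520 and 688 normalized counts in T1 and 5179, 5309 and 6107 in T2 samples, 8.96-fold higher in T2 cells (log2 fold change -3.17, adjusted p = 1.08e-08). At the p threshold alone 3 of the 10 were higher and 4 lower in T1 cells, against 25.1% and 24.4% of all genes. Jak1, named with its value known, was among those higher (log2 fold change 0.60, adjusted p = 5.95e-05). Stat3, the main STAT of gp130, had a log2 fold change of 0.06 (adjusted p = 0.562).

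All 16 inhibitors of JAK and STAT signalling were tested, and 3 were called, all lower in T1 cells (4.2% of all genes). Cish and Socs2, known targets of STAT5, were at 36.0 ± 14.7 against 200.8 ± 35.6 and at 96.9 ± 5.7 against 541 ± 67 normalized counts (SD, n = 3 each), with log2 fold changes of -2.53 (adjusted p = 5.17e-05) and -2.46 (adjusted p = 2.57e-07). The phosphatase gene Ptpn6 (SHP-1) had a log2 fold change of -2.14 (adjusted p = 2.54e-06). At the p threshold alone 2 of the 16 were higher and 8 lower in T1 cells, against 25.1% and 24.4% of all genes. Socs3 was among those lower, with a log2 fold change of -1.57 (adjusted p = 0.00912). Socs4, singled out with its value known, was among those higher (log2 fold change 0.63, adjusted p = 0.00866). Whether these levels follow from any ligand or receptor was not tested.

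**Figure D5:**
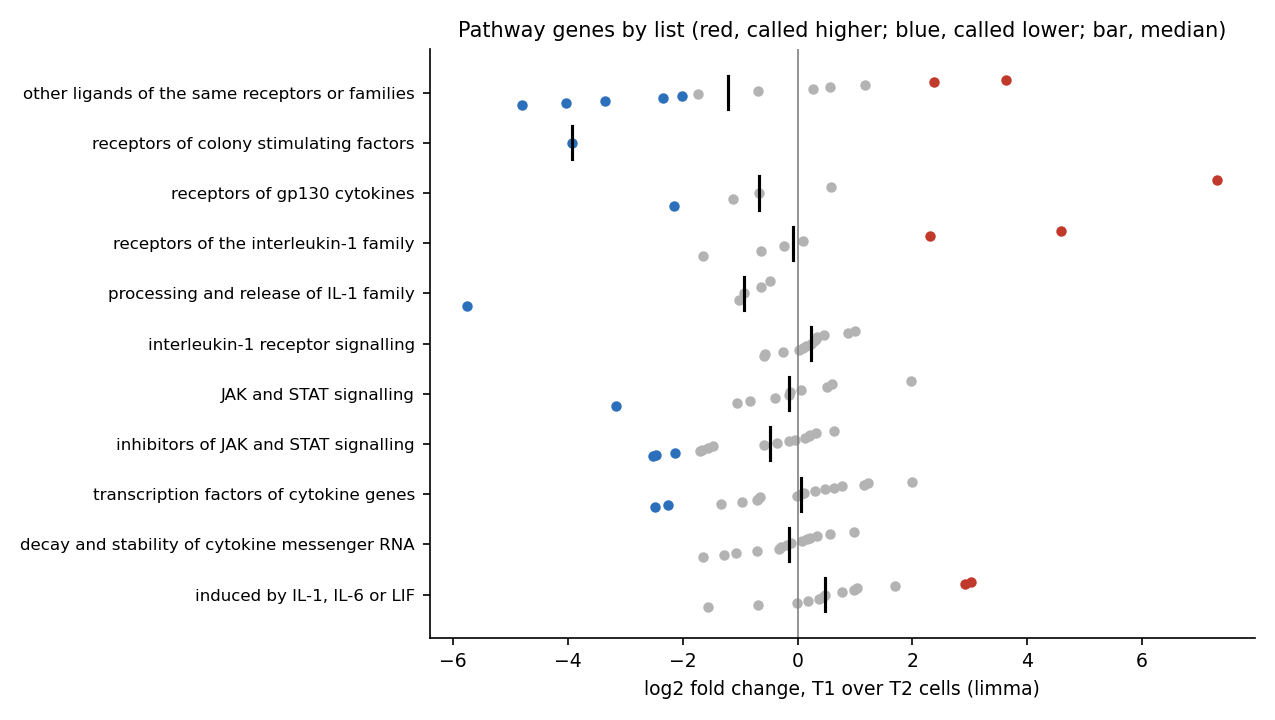
The log2 fold change of T1 over T2 cells for every tested gene of 11 lists around the cytokines, 1 list per line. Red points were called higher and blue points lower in T1 cells, grey points were not called, and black bars are list medians. Medians lie near 0 for most of the larger lists and at -1.21 for the other ligands.

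Transcription factors known to act on cytokine genes numbered 19, with 17 tested. None was called higher in T1 cells (4.17% of all genes). Called lower were 2 (4.2% of all genes), the AP-1 subunit genes Fosl1 and Fos. Fosl1 had 441, 456 and 292 normalized counts in T1 and 2316, 2524 and 1745 in T2 samples (log2 fold change -2.48, adjusted p = 1.51e-06). Fos had a log2 fold change of -2.26 (adjusted p = 0.00815), with T1 replicate 2 reaching 4333, close to the lowest T2 sample. The AP-1 subunits did not share a direction. Fosl2, named with its value known, went the other way, at 4445 ± 247 against 1258 ± 791 normalized counts (SD, n = 3 each; log2 fold change 1.99, adjusted p = 0.000277), just inside the fold threshold. Jun was lower in T1 cells inside that threshold (-1.34, adjusted p = 0.00192), and Junb had a log2 fold change of -0.02 (adjusted p = 0.964). Among 14 genes of cytokine mRNA decay and stability, all tested, none was called, and 3 were higher and 3 lower at the p threshold (25.1% and 24.4% of all genes). Zfp36l2, a decay factor for AU-rich messages, was lower in T1 cells inside the fold threshold (log2 fold change -1.65, adjusted p = 1.58e-06), and Hnrnpd, another AU-rich binder, had a log2 fold change of 0.07 (adjusted p = 0.466).

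Genes known to be induced by IL-1, IL-6 or LIF numbered 20, of which 13 were tested. Of these 2 were called, both higher in T1 cells (4.17% of all genes). At the p threshold 5 were higher and 1 lower, against 25.1% and 24.4% of all genes. Ptgs2, the inducible cyclooxygenase COX-2, had 23705, 27579 and 23355 normalized counts in T1 and 2290, 5269 and 2329 in T2 samples (log2 fold change 3.03, adjusted p = 4.33e-06). Cxcl5, a neutrophil chemokine, had 935, 727 and 754 in T1 and 77.4, 131 and 115 in T2 samples (log2 fold change 2.91, adjusted p = 7.47e-07). In Ptgs2, as in Lif and Il11, replicate 2 was highest in both populations. Saa1, an acute phase gene, and Steap4 had no read. Over all lists, 106 of 154 genes were tested, 7 were called higher (4.17% of all genes) and 14 lower (4.2% of all genes), and the median log2 fold change was -0.08. Among those called, Cntfr, Il1rl1, Csf2rb, Casp1, Il18 and Il7 passed the filter on low counts only through the population where they were high. The call counts of the lists are therefore given as description.

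Several of the nearest coding neighbours had no read, including both of Lif, and those with reads did not all share the direction of the member. Il1a and Il1b lie 54.6 kb apart on chromosome 2, and both had more reads in T1 cells, while Ckap2l, 2.40 kb from Il1a, had a log2 fold change of -0.05 (adjusted p = 0.559). Tmem190, 77 bases from Il11, was at 57.3 ± 19.8 and 53.0 ± 10.9 normalized counts (SD, n = 3 each; log2 fold change 0.07, adjusted p = 0.859). Ahcyl1, 44.5 kb from Csf1, had a log2 fold change of 0.14 (adjusted p = 0.108). Ranbp6, 112 kb from Il33, leaned the way of Il33 without passing the p threshold (-0.42, adjusted p = 0.0132). Psd4, 16.1 kb from Il1rn, had 11 reads in T1 and 0 in T2 cells, and was not tested. Osm, a gp130 cytokine gene 16.5 kb from Lif, and Il3, 15.6 kb from Csf2, had no read. On the other side of Csf2, 116 kb away, P4ha2, a collagen prolyl hydroxylase gene, was called higher in T1 cells, at 214 ± 25 against 6.99 ± 5.01 (log2 fold change 4.98, adjusted p = 5.96e-06), the same side as most Csf2 reads.

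The profiles most like those of the members were found as the smallest Euclidean distance between mean-centred log2(normalized count + 1) profiles over the 6 samples. For Lif these included Tnfrsf21 (distance 0.43) and Gli1 (0.43). For Il11 they included Nacad (0.31) and Id2 (0.35), the latter at 559 and 3370 normalized counts on average in T1 and T2 cells. Prickle1 (0.43) and Wnt10a (0.48) lay nearest to Il1a, and Adgrg3 (0.96) to Il33. Csf1 lay nearest to Marveld1 (0.13).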

How the data were processed

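The deposited table held 1 column per sample. The authors trimmed adapters with Trimmomatic, used TopHat2 for alignment (mm10) and HTSeq for gene counts, which DESeq2 size factors then scaled, so the deposited signal is a normalized count. Versions, the annotation and the strand setting are not given in the sources used here. Reads were recovered exactly, with 100% of values whole within 0.05. No column was unused (0). Gene names turned into dates, 25 names, were kept as written.

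Values were tested as log2(normalized count + 1) with limma 3.58.1 (R 4.3.3) for 11514 genes with a mean of at least 10, with Benjamini-Hochberg adjustment over all of them; fold changes are on that scale and understate those of low genes. The study used DESeq2 on reads; here edgeR 4.0.16 and DESeq2 1.42.0 on recovered reads were alternatives, because the deposited unit is normalized. Calls used an adjusted p below 0.01 and a log2 fold change beyond 2. An exact permutation test of 3 against 3 samples cannot go below p = 0.1. The pipeline was tested on simulated data. Floors and counting intervals cover counting error only. Coordinates and exonic lengths are from GENCODE M21 (GRCm38), promoters from RefSeq GRCm38.p6.

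The members and lists were chosen with earlier results of these data known. Named were all members and their receptors, up to 4 called genes with the largest fold change per other list, or the 2 most abundant where none was called, the nearest coding neighbours and profiles, and exceptions stated where they occur. Other pseudocounts, filters, scalings, thresholds, tools, a replicate block and leaving out each sample were also tried.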

Additional observations from a re-analysis of the deposited data

How the results depend on the processing

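Of 94 refitted log2 fold changes of the 6 members tested, 91 kept direction and side of the thresholds, 3 (all Lif, given above) fell short of the fold threshold, and 0 reversed. The alternatives were other pseudocounts, filters, scalings and tools, a replicate block, and leaving out samples. Requiring a mean of 50 normalized counts left 1 member higher and 1 lower, because Il1a and Il33 (means 45.3 and 42.3) were then not tested. Leaving out each sample gave 1 to 2 members higher and 2 lower each time, 7 to 9 pathway genes higher and 12 to 14 lower. An adjusted p below 0.05 with a log2 fold change beyond 1 gave 15 pathway genes higher and 27 lower, and 2 and 3 members. Without replicate 2 of both populations, an alternative added after seeing the data, 2 members were higher and 2 lower, and 9 pathway genes were higher and 13 lower.

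Replicate numbers were shared between groups and were not treated as pairs in the main fit. The correlations of deviations for same-numbered samples were 0.057, 0.172 and 0.104. Of the 6 samples, 5 correlated best with their own number. With the replicate block, 2 members were higher and 2 lower, and 7 pathway genes were higher and 14 lower, the counts without it. The adjusted p with the block (limma) was 1.44e-07 for Lif, 6.97e-06 for Il11 and 3.1e-06 for Il1a. Without it these were 4.48e-05, 0.000173 and 2.46e-06. Whether the replicates are paired was not settled. Depth limits Il6, Il1b, Il1rn and Csf2, whose reads are too few to show moderate differences.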
